A study of Mus musculus with 6 samples.

Results

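The 10 genes described here encode fibronectin (Fn1), the elastic fiber proteins elastin (Eln), fibrillin-1 (Fbn1), fibulin-1, fibulin-2 and fibulin-5 (Fbln1, Fbln2, Fbln5) and EMILIN-1 (Emilin1), and the cross-linking enzymes lysyl oxidase (Lox) and its relatives Loxl1 and Loxl2. They were chosen by name from the 45706 genes of a gene count table, with earlier results of these data known, and each name matched a single row. In RBMS1 knockdown adipocytes, 0 of the 8 members with enough counts to test changed at an adjusted p of 0.1 or less, against 1.22% of all tested genes. Eln, which had too few counts for that test, was the member with the largest difference, at 60 counts over the scrambled control samples and 20 over the knockdown samples. Within each sample, Fn1 took a larger part of the counts of the 10 genes in all 3 knockdown samples than in any control sample. Lox took a smaller part on that denominator but overlapped between groups once Fn1 was left out of it, and 9.69% of all tested genes also had groups apart on the same denominator, 978 of 1109 of them lower.

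The cells were 3T3-L1, a mouse embryo fibroblast line that becomes adipocytes in culture. Both groups carried an integrated lentiviral short hairpin construct, either a scrambled control shRNA or an shRNA against Rbms1, which encodes an RNA-binding protein, and were selected with puromycin as a stable population. Both groups were then given the same adipogenic mixture of IBMX, insulin, dexamethasone and rosiglitazone and were harvested on day 7, with 3 biological replicates per group. The labels give the controls as WT and the cells of both groups as fibroblasts, and the comparison asks what loss of RBMS1 does to gene expression in mature adipocytes.

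Fibronectin is a secreted glycoprotein that cells assemble into fibrils through integrins, and that fibril network is a scaffold for other matrix proteins. Elastic fibers consist of an elastin core laid down on microfibrils built of fibrillin, with fibulins and EMILIN-1 as associated proteins. Lysyl oxidases are secreted copper enzymes that oxidize lysine side chains of elastin and collagen, which then form covalent cross-links. Preadipocytes live in a matrix rich in fibronectin, and that matrix is remodeled as the cells round up and fill with lipid.

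The libraries held between 3142699 and 11073111 counts. Levels are given below as CPM, which are counts per 1000000 counts of the TMM-scaled library, and 3 counts correspond to 0.220 to 1.49 CPM depending on the library. Control replicate 2 was the shallowest library and had 43.0% of its counts on ribosomal RNA genes, against 8.12 to 17.8% in the other 5. Rbms1 itself was at 113, 102 and 99.6 CPM in the controls and at 49.2, 61.4 and 84.0 CPM in the knockdown samples, a log2 fold change of -0.69 ± 0.20 (SE) that did not pass the threshold (edgeR adjusted p = 0.185). Every knockdown sample was below every control sample, where 18.5% of all tested genes had groups apart in either direction. Knockdown replicate 3 retained the most Rbms1. The adipocyte markers Adipoq, Fabp4 and Lpl were abundant in all 6 samples, Lpl at 5350 to 14512 CPM, while the leptin gene Lep had 22 counts or fewer in each sample. The macrophage markers Ptprc and Adgre1 and the endothelial marker Kdr had 0 counts in every sample, while the macrophage marker Cd68 had 4 to 28 counts and the endothelial marker Pecam1 10 or fewer.

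Promoter windows from RefSeq (GRCm38.p6), matched by symbol, were read for 5 of the 10 members, namely Emilin1, Fbln1, Fbln2, Fbln5 and Fbn1. No window was read for the other members, which does not show that RefSeq lacks one for them. The windows of Fbln1 and Fbln5 are shown because these 2 genes, picked after their values were seen, had the largest fitted fold changes upward among the elastic fiber genes and closely similar profiles across the 6 samples (Pearson r = 0.90 of log2 levels, a description over samples of 2 groups). Both genes had 2 windows of 250 bases before an annotated start, and the window printed for each is the one that lies wholly upstream of the GENCODE gene. Capitals mark matches, on either strand, to the GC box GGGCGG or to CCAAT.
Fbln1, chr15:85205699-85205948, plus strand: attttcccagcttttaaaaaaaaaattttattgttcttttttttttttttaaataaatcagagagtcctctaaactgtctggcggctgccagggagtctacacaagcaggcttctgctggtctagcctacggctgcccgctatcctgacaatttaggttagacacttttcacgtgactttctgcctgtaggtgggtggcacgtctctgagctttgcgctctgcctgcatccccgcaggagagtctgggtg
Fbln5, chr12:101819120-101819369, minus strand: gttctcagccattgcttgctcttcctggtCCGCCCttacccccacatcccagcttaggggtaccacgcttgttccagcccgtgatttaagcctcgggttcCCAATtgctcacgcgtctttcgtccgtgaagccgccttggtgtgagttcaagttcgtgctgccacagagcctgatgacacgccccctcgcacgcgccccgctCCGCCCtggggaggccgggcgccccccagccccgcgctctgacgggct
The printed Fbln5 window had GC boxes at 221 to 216 and at 48 to 43 bases before the start, and a CCAAT at 150 to 146 bases before it, with 65.2% G or C. The printed Fbln1 window had 46.4% G or C, against a median of 52.4% over all promoters, and held none of the letters searched. The second Fbln1 window (chr15:85205758-85206007), which overlaps the first and the gene, had 62.4% G or C and a GC box at 11 to 6 bases before its start. The second Fbln5 window (chr12:101818485-101818734) had 49.6% and held none of the letters. The search also covered the cAMP response element TGACGTCA, the AP-1 site TGANTCA, the TEAD site GGAATG, the TATA box TATAAA, the SMAD site GTCTAGAC and the CArG box. Among 32851 promoter windows of the same length, 32.7% held the GC box, 33.8% CCAAT, 12.6% the TEAD site, 12.4% TATAAA, 6.75% the AP-1 site, 1.55% the cAMP response element, 1.47% the CArG box and 0.167% the SMAD site. The GC box was thus in 1 of the 2 windows of each gene, and these matches describe letters only.

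Per kilobase of exon, Fn1 was the most abundant member, with a mean of 261 CPM per kb over the 6 samples (range 188 to 362). Lox followed at 106 CPM per kb (52.7 to 136), and the ranges of Fn1 and Lox did not overlap. Next came Fbln2 at 63.1 CPM per kb (36.6 to 85.7), Loxl1 at 40.7 (19.7 to 70.9), Emilin1 at 21.3 (17.5 to 24.2) and Fbn1 at 13.0 (5.74 to 19.2). From Fn1 down to Fbn1, each gene stood above its next neighbor in 6 of 6 samples, although the ranges below Lox overlapped between neighbors. Fbln1 at 8.66 CPM per kb (3.52 to 18.0) and Fbln5 at 6.08 (3.59 to 7.71) were less clearly ordered, since Fbn1 exceeded Fbln1 and Fbln1 exceeded Fbln5 in 5 of 6 samples each. Eln at 0.263 CPM per kb (0.0533 to 0.653) and Loxl2 at 0.0929 (0 to 0.208) lay apart from the rest at the bottom, with Eln above Loxl2 in 4 of 6 samples. The transcripts for the core protein elastin were thus scarce in these adipocytes, while those for the fibulin Fbln2 and for Lox were among the abundant ones.

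**Figure D1:**
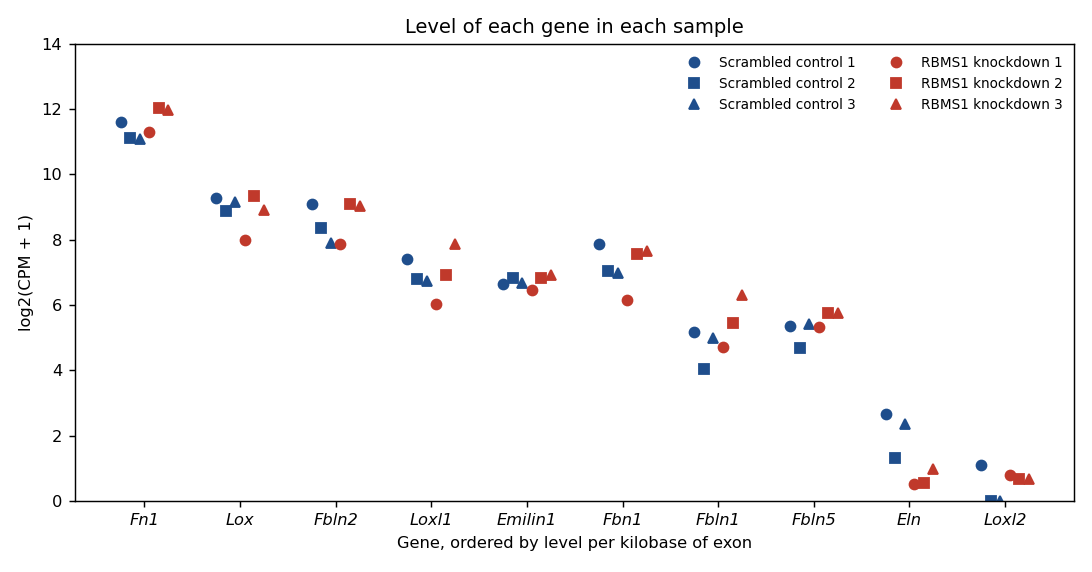
Level of each of the 10 genes in each sample, as log2(CPM + 1) on the vertical axis, with genes ordered by level per kilobase of exon. Blue symbols are the 3 scrambled control samples, red symbols the 3 RBMS1 knockdown samples, and the symbol shape gives the replicate. The groups overlap for 9 of the genes, and Eln is lower in every knockdown sample.

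Fn1 (ENSMUSG00000026193, GRCm38 chr1:71585520-71653200, minus strand) was at 3090, 2238 and 2198 CPM in the controls and at 2508, 4230 and 4054 CPM in the knockdown samples. Knockdown replicates 2 and 3 lay above every control, whereas knockdown replicate 1 fell between control replicates 1 and 2. The means were 2509 ± 504 CPM in the controls and 3598 ± 947 in the knockdown group (SD, n = 3 each). The log2 fold change was 0.52 ± 0.30 (SE), with a 95% interval of -0.15 to 1.19, and did not pass the threshold (edgeR adjusted p = 0.521). Without knockdown replicate 1 the log2 fold change was 0.73 (0.20 to 1.26), again short of the threshold (edgeR adjusted p = 0.139).

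Eln (ENSMUSG00000029675, chr5:134702593-134747323, minus strand) had 33, 3 and 24 counts in the controls and 3, 4 and 13 in the knockdown samples, which are 5.29, 1.49 and 4.13 CPM against 0.431, 0.468 and 0.954 CPM. Each knockdown sample was below each control sample on the CPM scale, although control replicate 2 and knockdown replicate 1 rested on 3 counts each. Summed over samples and divided by the TMM-scaled library sizes, the level was 6.21-fold higher in the controls. The exact 95% binomial interval of the inverse ratio, 0.0919 to 0.271 around 0.161, covers counting error only. Leaving out each sample in turn moved the 6.21-fold ratio between 5.02 without control replicate 1 and 9.45 without knockdown replicate 3.

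With no filter on low counts, edgeR gave Eln a log2 fold change of -2.54 ± 0.58 (SE; 95% interval -3.78 to -1.30) and an adjusted p of 0.0661, in a fit that called 1.38% of its 19406 genes. DESeq2 gave -2.55 ± 0.75 and an adjusted p of 0.0367, and called 3.2% of its genes. The unfiltered edgeR call was lost when control replicate 1, 2 or 3 or knockdown replicate 2 was left out (adjusted p = 0.330, 0.105, 0.329 and 0.298), and was kept without knockdown replicate 1 or 3 (adjusted p = 0.0571 and 0.0659). The log2 fold change stayed between -3.07 and -2.21 throughout.

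Fbn1 (ENSMUSG00000027204, chr2:125300594-125507993, minus strand), which encodes the main microfibril protein, was at 233, 132 and 124 CPM in the controls and at 69.6, 188 and 199.7 CPM in the knockdown samples. Knockdown replicate 1 was the lowest of all 6 samples and control replicate 1 the highest, with the other 4 between them. The group means, 163 ± 60.5 and 152 ± 71.9 CPM (SD, n = 3 each), gave a log2 fold change of -0.10 with a 95% interval of -0.94 to 0.75 (edgeR adjusted p = 0.945). An interval of that width allows a difference of either sign.

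Of the fibulins, Fbln1 (ENSMUSG00000006369, chr15:85205949-85286535, plus strand) was at 34.9, 15.4 and 30.6 CPM in the controls and at 25.0, 42.3 and 78.8 CPM in the knockdown samples. Its fitted log2 fold change, 0.84 ± 0.41 (SE), was the largest upward among the tested members, with a 95% interval of -0.08 to 1.75 (edgeR adjusted p = 0.446). Knockdown replicates 2 and 3 lay above the controls and replicate 1 lay among them. Without replicate 1 the log2 fold change was 1.16 (0.42 to 1.9) and Fbln1 passed the threshold (edgeR adjusted p = 0.0963), whereas without knockdown replicate 3, its highest sample, the log2 fold change was 0.31.

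Fbln2 (ENSMUSG00000064080, chr6:91212455-91272540, plus strand) was at 546, 328 and 239 CPM in the controls and at 233, 541 and 525 CPM in the knockdown samples. The lowest control and the lowest knockdown sample were almost level, as were the highest of each group. Its log2 fold change was 0.22 ± 0.36 (SE), with a 95% interval of -0.59 to 1.04 (edgeR adjusted p = 0.851). Fbln5 (ENSMUSG00000021186, chr12:101746565-101819055, minus strand), whose protein binds elastin and cells through integrins and is needed for elastic fiber assembly, was at 39.8, 24.8 and 42.2 CPM in the controls and at 38.8, 53.3 and 53.3 CPM in the knockdown samples. Here too knockdown replicate 1 sat among the controls and the other knockdown samples above them. The log2 fold change of Fbln5 was 0.44 ± 0.23 (SE; -0.07 to 0.95), which did not pass (edgeR adjusted p = 0.478).

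Emilin1 (ENSMUSG00000029163, chr5:30913402-30921277, plus strand), an elastin-binding glycoprotein gene, varied least of the members. It was at 99.1, 113 and 100.1 CPM in the controls and at 86.3, 112 and 119 CPM in the knockdown samples, so the knockdown samples held both the lowest and the highest value. Its log2 fold change was 0.02, with a 95% interval of -0.34 to 0.39 that is the narrowest of the 8 (edgeR adjusted p = 0.967).

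Lox (ENSMUSG00000024529, chr18:52516067-52529867, minus strand) was at 619, 472 and 567 CPM in the controls and at 252, 651 and 476 CPM in the knockdown samples. The controls stood close together, and the knockdown samples ran from far below them to above them. The log2 fold change was -0.27 ± 0.30 (SE; -0.94 to 0.41; edgeR adjusted p = 0.773), and without knockdown replicate 1 it was 0.03. Loxl1 (ENSMUSG00000032334, chr9:58287738-58313186, minus strand), the family member tied most closely to elastin maintenance, was at 170.1, 109 and 106 CPM in the controls and at 64.8, 121 and 234 CPM in the knockdown samples. Its knockdown samples took the lowest and the highest place among the 6, and the log2 fold change was 0.12 with a 95% interval of -0.76 to 1.01 (edgeR adjusted p = 0.933).

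Loxl2 (ENSMUSG00000034205, chr14:69609068-69695834, plus strand), which encodes a lysyl oxidase with scavenger receptor domains, had 7, 0 and 0 counts in the controls and 5, 5 and 8 in the knockdown samples. It did not pass the filter, and the ratio of knockdown to control, 1.24 with an exact 95% binomial interval of 0.495 to 3.52, left the direction undetermined at this depth. An antisense gene that overlaps Loxl2, Gm27177, had 4, 0 and 0 counts in the controls and 2, 7 and 2 in the knockdown samples. At 11 counts or fewer in any sample, the antisense gene Apol7d, which overlaps Fn1, was negligible beside Fn1 itself.

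Over the 8 tested members, 6 had a log2 fold change above 0 and 2 below, with a median of 0.17, where all 11440 tested genes had a median of 0.0044 and 50.4% above 0. The groups overlapped for 8 of 8, while 18.5% of all tested genes had groups that did not. None of the 8 reached an unadjusted p of 0.05 in edgeR either (0 of 8, against 1422 of 11440 genes), and the only member called by DESeq2 was Eln (1 of 10). Of the 140 genes called among all, 25.7% were higher in the knockdown, a share that became 66.7% when library sizes alone set the scale.

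**Figure D2:**
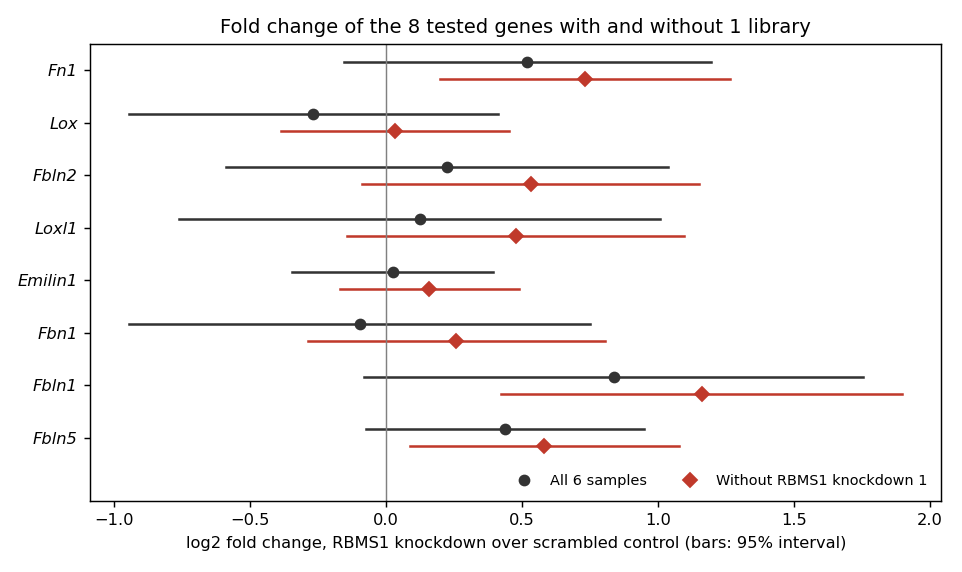
Log2 fold change of the 8 tested genes, RBMS1 knockdown over scrambled control, on the horizontal axis, with bars for the 95% interval. Black circles use all 6 samples and red diamonds leave out knockdown replicate 1. With all samples every interval spans 0, and the intervals of Fn1, Fbln1 and Fbln5 lie above 0 without that replicate.

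Knockdown replicate 1 stood apart from the other knockdown samples in these genes. It was the lowest of the 3 knockdown samples for 8 of 8 tested members, as it was for 37.7% of all tested genes, and the lowest of all 6 samples for 5 of them (Fbn1, Fbln2, Emilin1, Lox and Loxl1), as for 20.1% of tested genes. It lay at least 2-fold below the mean of knockdown replicates 2 and 3 for 5 members, namely Fbn1 (2.78-fold), Loxl1 (2.74-fold), Fbln1 (2.42-fold), Fbln2 (2.28-fold) and Lox (2.24-fold), against 8.23% of all tested genes. Fn1 was 1.65-fold lower there, Fbln5 1.37-fold and Emilin1 1.34-fold.

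The spread within both groups was wider than the median over all genes. The median SD of log2 levels was 0.40 among controls and 0.69 among knockdown samples for the tested members, and 0.24 and 0.26 for all tested genes. In the knockdown group the SD was 0.92 for Loxl1, 0.85 for Fbn1 and 0.82 for Fbln1, down to 0.26 for Fbln5 and 0.25 for Emilin1. Without knockdown replicate 1, 8 of the 8 members were above 0 with a median of 0.50, beside a median of 0.0021 over all genes of that fit. Leaving out the lowest knockdown sample of each member raises its fold change by construction. In the same fit 2 of 9 members that passed the filter were called, where 5.94% of all genes tested in that fit were called. Fbln1 was called upward and Eln downward (log2 fold change -2.36, edgeR adjusted p = 0.0918). Eln did not pass the filter with all 6 samples. Its highest counts were in control replicates 1 and 3 (33 and 24), so its entry is tied to the group where it is high. The groups were then apart for Fn1, Fbln1 and Fbln5 among the 8 members tested with all samples, and for Eln. This is 4 of 9 against 34.2% of all genes, and the 9 include Eln through the filter described above. This left-out sample was singled out for its values, and the labels give no reason to leave it out.

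Members were also compared within samples, as the share of the summed counts of the 10 genes, which does not depend on how the libraries are scaled to each other. Fn1 took 63.9, 65.2 and 64.4% in the controls and 76.5, 71.2 and 70.6% in the knockdown samples. All knockdown samples were above all controls, including knockdown replicate 1, which had the highest share. The means were 64.5 and 72.8% (two-sided exact permutation p = 0.1, the smallest that 3 against 3 samples allows).

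Lox took 12.8, 13.8 and 16.6% in the controls and 7.67, 11.0 and 8.30% in the knockdown samples, all lower. Fbn1 took 4.81, 3.84 and 3.64% in the controls and 2.12, 3.16 and 3.48% in the knockdown samples, also all lower but by a small margin. Eln had a mean share of 0.0913% in the controls and 0.0125% in the knockdown samples, without overlap. Each of these 3 comparisons had a two-sided exact permutation p of 0.1, so none could pass 0.05 in this design. The shares of the other 6 members overlapped between groups, with exact permutation p of 0.3 to 0.6.

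**Figure D3:**
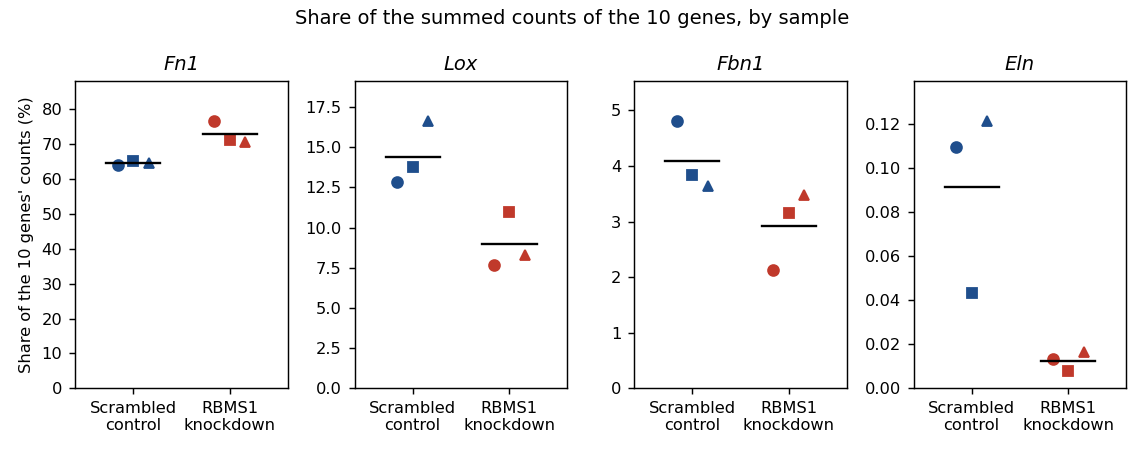
Share of the summed counts of the 10 genes taken by Fn1, Lox, Fbn1 and Eln in each sample, in percent, with a separate vertical axis from 0 for each gene. Blue symbols are scrambled control samples, red symbols RBMS1 knockdown samples, the shape gives the replicate and black lines are group means. The Fn1 share is higher in all 3 knockdown samples (means 64.5 and 72.8%), and the other 3 shares are lower.

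When the counts of every tested gene were divided by the same sum, 9.69% had groups that did not overlap, 131 genes higher and 978 lower. Shares add up to the whole, so a larger Fn1 share leaves a smaller share for the other 9 genes, whichever of the 2 levels differs. In knockdown replicate 1 Fn1 was at 2508 CPM, near the control mean of 2509, and the other 9 genes summed to 771 CPM, below every control. In knockdown replicates 2 and 3 Fn1 was above every control, and the other 9 genes summed to 1709 and 1688 CPM, within the control range. Among the 9 genes without Fn1, a denominator chosen after the values were seen, the Lox shares were 35.4, 39.5 and 46.7% in the controls and 32.6, 38.1 and 28.2% in the knockdown samples, which overlap (exact permutation p = 0.2). Fbn1 overlapped as well (exact permutation p = 0.5), and Eln was the 1 of the 9 that stayed apart, where 5.69% of all tested genes were apart on that denominator. The log2 ratio of Fn1 to Lox, also chosen after the values were seen, was 2.32, 2.24 and 1.96 in the controls and 3.32, 2.7 and 3.09 in the knockdown samples (means 2.17 ± 0.19 and 3.04 ± 0.31, SD, n = 3 each). That the groups are apart in this ratio follows from the shares of Fn1 and Lox above, so no p is given for it.

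The summed level of the 10 genes was 4837, 3434 and 3410 CPM in the controls and 3279, 5939 and 5742 CPM in the knockdown samples, a difference of 0.36 on the log2 scale of the means that lay within the spread (exact permutation p = 0.4). That difference was 0.58 without knockdown replicate 1, 0.54 without control replicate 1, 0.21 without knockdown replicate 2 and 0.71 when library sizes alone set the scale. Without Fn1 the sums were 1748, 1196 and 1212 CPM against 771, 1709 and 1688 CPM, and the log2 difference was 0.0039 (exact permutation p = 1).

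Markers of other cell states were measured in the same samples. In bulk RNA, fewer cells of a type and less RNA per cell cannot be told apart. The summed CPM of 12 preadipocyte and fibroblast markers, among them Col1a1, Vim and Thy1, was 12022, 10719 and 10545 in the controls and 5844, 12846 and 13207 in the knockdown samples, so knockdown replicate 1 was lowest here as well. Of the 11 tested fibroblast markers, 0 were called by edgeR, with a median log2 fold change of -0.085, and Cd34 had 2 counts or fewer in every sample. The lowest p-values were those of Dcn, the decorin gene (log2 fold change -0.94, edgeR adjusted p = 0.150), and Pdgfra, a growth factor receptor gene of adipocyte progenitors (-0.87, edgeR adjusted p = 0.155). DESeq2 called both lower (adjusted p = 0.0199 and 0.0277), as did edgeR without knockdown replicate 1 (adjusted p = 0.0599 and 0.0665).

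The summed CPM of 5 smooth muscle and myofibroblast markers was 233, 121 and 139 in the controls and 45.4, 256 and 351 in the knockdown samples, with 0 of 4 tested markers called by edgeR or DESeq2 and Cnn1 at 0 in all samples. Acta2, the smooth muscle actin gene, was at 5.89 CPM in knockdown replicate 1 and at 78.4 to 298 CPM in the other 5. The lowest p-values here belonged to Myh11 (log2 fold change -0.81, edgeR adjusted p = 0.394) and Tagln (0.97, adjusted p = 0.679). Acta2 was called higher without knockdown replicate 1 (log2 fold change 1.09, edgeR adjusted p = 0.0938). The summed CPM of 12 adipocyte markers was 22512, 23796 and 25527 in the controls and 20758, 11564 and 13773 in the knockdown samples. In this sum knockdown replicate 1 was the highest of its group and still below every control. Lpl was the largest term, at 12275, 11958 and 14512 CPM in the controls and 10210, 5350 and 5595 CPM in the knockdown samples. By single marker, knockdown replicate 1 was above every control for Cidec, Slc2a4 and Lipe. It was below every control for Lpl, Cebpa, Retn and Pnpla2, and among the controls for the others. Of the 11 tested adipocyte markers, edgeR called 0 higher and 1 lower, Retn, the resistin gene, with a log2 fold change of -1.67 (edgeR adjusted p = 0.0967), and 11 of 11 were below 0 with a median of -0.43. Cebpa came next (log2 fold change -0.61, edgeR adjusted p = 0.319). DESeq2 called 2 lower, Retn (adjusted p = 0.000207) and Lpl (adjusted p = 0.0323). Without knockdown replicate 1, edgeR called 7 of the adipocyte markers, all lower, against 5.94% of all genes in that fit. Macrophage markers summed to 1.38 to 3.27 CPM, with Cd68 the only tested marker among them (log2 fold change 0.92, edgeR adjusted p = 0.570), and endothelial markers to 0.172 to 2.40 CPM. The part of these cell states in the values of the 10 genes was not tested.

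**Figure D4:**
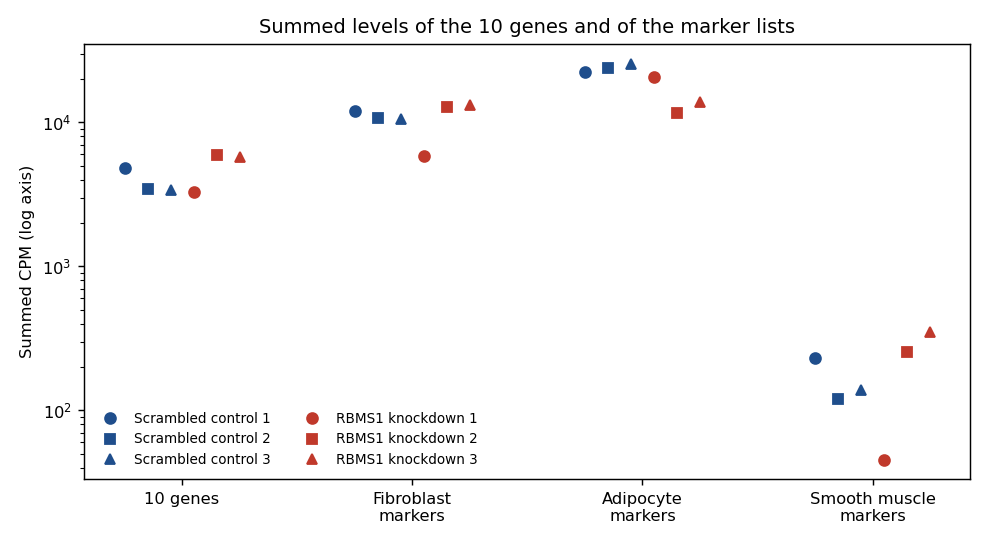
Summed CPM of the 10 genes and of the fibroblast, adipocyte and smooth muscle marker lists in each sample, on a log vertical axis. Blue symbols are scrambled control samples, red symbols RBMS1 knockdown samples, and the shape gives the replicate. Knockdown replicate 1 (red circle) is the lowest of the 6 for the 10 genes (3279 CPM) and for the fibroblast and smooth muscle markers, and the highest knockdown sample for the adipocyte markers.

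Other genes of the same structures were read from lists that do not include the members. Of 21 further elastic fiber and microfibril genes, 8 were tested and 0 were called by edgeR, with 2 above 0, 6 below and a median log2 fold change of -0.12. The lowest p-values were those of Ltbp1, which encodes a fibrillin-binding protein that stores latent TGF-beta, and Emilin2, a relative of Emilin1. Ltbp1 was at 73.3, 66.0 and 86.4 CPM in the controls and at 23.1, 42.0 and 48.7 CPM in the knockdown samples, a log2 fold change of -0.99 ± 0.26 (SE; edgeR adjusted p = 0.149). Emilin2 was at 13.9, 10.9 and 5.68 CPM against 1.01, 3.39 and 3.38 CPM, a log2 fold change of -1.93 ± 0.49 (edgeR adjusted p = 0.140). For both genes every knockdown sample was below every control, where 18.5% of all tested genes had groups that did not overlap in either direction. DESeq2 called 3 genes of this list lower, Emilin2 (adjusted p = 0.0179), Hmcn1 (adjusted p = 0.0284) and Ltbp1 (adjusted p = 0.0287), against 3.2% of all genes in that fit, and Fbn2, the fibrillin of early development, had 0 counts throughout. Without knockdown replicate 1, edgeR called Ltbp1 (adjusted p = 0.0612) and Emilin2 (adjusted p = 0.0792) lower, where it called 5.94% of all genes.

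Of 9 further cross-linking and maturation genes, 7 were tested and 0 were called by edgeR or DESeq2, with 4 above 0, 3 below and a median log2 fold change of 0.18. Loxl3, another lysyl oxidase, had the lowest p in this list, at 20.5, 12.4 and 14.6 CPM in the controls and 10.1, 30.3 and 52.2 CPM in the knockdown samples (log2 fold change 0.95, edgeR adjusted p = 0.463). Loxl3 was called higher without knockdown replicate 1 (log2 fold change 1.38, edgeR adjusted p = 0.0313). Its samples ran in the same order as those of Loxl1 within the knockdown group, with replicate 1 lowest and replicate 3 highest. Atp7a, which encodes a transporter that supplies copper to lysyl oxidases, came next (log2 fold change 0.19, edgeR adjusted p = 0.650), and Tll2 had 0 counts. Of 15 fibronectin receptor and assembly genes, 11 were tested and 0 were called by edgeR or DESeq2, with 7 above 0, 4 below and a median of 0.068. The integrin gene Itgb5 came closest, at 70.4, 63.5 and 67.6 CPM in the controls and 94.0, 88.8 and 89.0 CPM in the knockdown samples (log2 fold change 0.43 ± 0.14, edgeR adjusted p = 0.224). Itga8 followed with a log2 fold change of -1.51 (edgeR adjusted p = 0.311), and Itga4 and Itgb6 had 0 counts. The integrin gene Itgav was called higher without knockdown replicate 1 (log2 fold change 0.60, edgeR adjusted p = 0.0660). Itgb1, another integrin gene, was at 324, 378 and 371 CPM in the controls and 237, 293 and 298 CPM in the knockdown. Its log2 fold change was -0.37 (edgeR adjusted p = 0.386), and it was not called without knockdown replicate 1 (edgeR adjusted p = 0.409).

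Across the 6 samples, 8152 genes with a mean of at least 10 CPM were ranked by the Pearson r of their log2 levels with a member. The genes most like Fn1 were Plp2 (r = 0.992), Flnc (0.991), Npr2 (0.989), Lrfn4 (0.986) and Slc6a8 (0.983). Those most like Fbln1, the tested member with the lowest p, were Ptk7 (r = 0.992), Sufu (0.989), Tulp4 (0.985), Tsc22d1 (0.982) and Prkrir (0.981). Between members, r was 0.90 for Fbn1 with Fbln2, 0.89 for Fbn1 with Loxl1 and 0.85 for Fn1 with Fbln2, and lowest for Fbln5 with Emilin1 at 0.14. These correlations rest on 6 libraries of 2 groups that share their scaling and are descriptions only.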

How the data were processed

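Total RNA from 6 samples was sequenced from stranded, rRNA-depleted libraries. The authors trimmed reads with Trim Galore 0.6.7, used STAR 2.7.10a for alignment against GRCm38, and summarized genes by Salmon 1.9.0. The deposited values are estimated counts per gene, not normalized. Between 3.97 and 7.78% of the values per library were not whole within a tolerance of 1e-06, and all were rounded. Of 45706 genes, 11440 passed edgeR's expression filter. The main test was edgeR's quasi-likelihood test (edgeR 4.0.16, R 4.3.3) with TMM scaling, knockdown against control, Benjamini-Hochberg adjustment over all tested genes and a threshold of 0.1, which is among the levels the study used. DESeq2 1.42.0 and limma 3.58.1 served as alternatives. Shares and sums were compared by two-sided exact permutation over the 20 splits of 3 against 3. Coordinates and exon lengths come from GENCODE M21 (GRCm38). Intervals on counts cover counting error only. Scripts were tested on simulated data. The members, lists and tests were chosen with earlier results of these data known. Named genes were the members, Rbms1, the called genes, the 2 genes with the lowest p and the genes without counts in each list, and the 5 genes most like Fn1 and the tested member with the lowest p. Adipoq, Fabp4, Lpl, Lep, Acta2, Cd34, Pecam1, Itgav, Col1a1, Vim, Thy1, Hmcn1 and the overlapping genes were named after their values were seen. The same holds for Cidec, Slc2a4, Lipe, Pnpla2 and Itgb1.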

Additional observations from a re-analysis of the deposited data

How the results depend on the processing

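Across 16 alternatives, 114 of 128 log2 fold changes of the tested members kept their direction and side of the threshold, 1 newly passed it (Fbln1 without knockdown replicate 1) and 13 changed sign. Fn1 (0.40 without knockdown replicate 2 to 0.87 with library sizes alone), Fbln1 (0.31 without knockdown replicate 3 to 1.16 with library sizes alone) and Fbln5 (0.24 without control replicate 2 to 0.76 with library sizes alone) stayed above 0 in all 16. Fbn1 was at 0.24 and Lox at 0.078 when library sizes alone set the scale, which moved the median of all genes to 0.37, and Loxl1 was at -0.069 by limma-voom and -0.020 with the replicate block. Leaving out 1 sample at a time gave ranges of -0.34 to 0.26 for Fbn1, -0.011 to 0.62 for Fbln2, -0.068 to 0.16 for Emilin1, -0.59 to 0.034 for Lox and -0.46 to 0.48 for Loxl1. The count of all genes called went from 140 to 268 with no filter, 430 by DESeq2, 39 with the replicate block and 12 (without control replicate 2) to 696 (without knockdown replicate 1) with 1 sample left out, or 21, 32, 116 and 38 without control replicate 1, control replicate 3, knockdown replicate 3 and knockdown replicate 2. Members called were 1 with no filter, 1 by DESeq2 (Eln in each) and 0 to 2 with 1 sample left out. Same-numbered samples did not deviate together (correlations -0.14, 0.078 and -0.028), so the block describes numbers only. The cause of these changes was not tested. Few counts limit Eln and Loxl2, and 3 samples per group limit every interval.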
